A study of Homo sapiens with 6 samples.

Results

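Homologous recombination copies sequence from an intact sister chromatid to mend a broken or stalled DNA molecule, and the Fanconi anemia pathway unhooks DNA strands that have been crosslinked. The 33 genes described here encode proteins of both pathways and were named by their known roles, with earlier results of these data in view, so the shares below describe the list and are not independent support. A probe set was counted for a gene when the gene was its single symbol in the platform annotation, with older names updated (MRE11 was annotated as MRE11A). This gave 872 probe sets, of which 759 lay above the filter on low values, and all 33 genes passed into the test of 17841 genes, out of 19488 genes with a probe set.

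RNA came from HCT116, an established human colorectal carcinoma line that the titles mark +/+ without naming a gene, collected 12 h after treatment. The series' title speaks of genes whose loss is lethal together with Nutlin-3. The groups were Nutlin-3, which blocks the binding of MDM2 to p53, 5FU (5-fluorouracil), an inhibitor of thymidylate synthase that disturbs DNA and RNA synthesis, and control, with 2 Affymetrix Human Exon 1.0 ST arrays each. The labels write Nutlin 3R for the first drug and give no treatment for the controls, whereas the design text names DMSO. The labels and the design text name no dose, and nothing says whether the replicates were separate cultures, so p-values measure the spread between these arrays, which may be technical.

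In cells that copy their DNA, the recombinase is loaded onto resected ends by BRCA2 with PALB2 and BRCA1, and helicases and nucleases later take the joined molecules apart. In the Fanconi pathway, a core complex with the E2 enzyme UBE2T attaches ubiquitin to FANCD2 and FANCI, and USP1 removes it. Recombination needs a sister chromatid and works mainly in S and G2 phase, and many of these genes are transcribed most strongly as cells enter S phase. Activated p53 induces the CDK inhibitor CDKN1A and represses many cell-cycle genes.

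All values below are log2 RMA values averaged over the probe sets of a gene, and the replicates of a group are given in the order 1 and 2. A difference is between group means on that log2 scale, and a gene is said to have fallen or risen where limma's Benjamini-Hochberg adjusted p over all 17841 genes was below 0.05. Brightness depends on the probes, so levels are compared between arrays and not between genes.

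Both drugs raised the p53 targets used as a check of the labels. CDKN1A had 10.39 and 10.39 in the Nutlin-3 arrays, 10.12 and 10.03 in the 5FU arrays, and 8.32 and 8.27 in the control arrays, and rose 4.27-fold after Nutlin-3 (limma adjusted p = 0.00308) and 3.43-fold after 5FU (limma adjusted p = 0.00751). MDM2, which marks p53 for degradation, rose 3.63-fold after Nutlin-3 (limma adjusted p = 0.0099) and 2.96-fold after 5FU (limma adjusted p = 0.0283). Of 12 epithelial markers, 11 were tested and spanned 5.52 to 11.31, with KRT8 at 11.14 to 11.31 and KRT18 at 10.94 to 11.12. The 8 tested fibroblast markers spanned 5.09 to 7.60 and the 7 tested blood markers 5.20 to 7.29, and none of these markers was called in any comparison. These spans overlap, and since brightness depends on the probes they do not rank cell types.

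Replicates of a group differed more over the 33 genes than over all genes. The mean over the 33 genes was 6.45 and 6.87 in the Nutlin-3 arrays, 7.58 and 7.87 in the 5FU arrays, and 7.84 and 7.48 in the control arrays, while the medians over all genes lay between 6.98 and 7.09. Replicate 2 was the higher one for 33 of 33 genes with Nutlin-3 and for 31 of 33 with 5FU, but for 4 of 33 in the controls. Over all genes these shares were 59.5% with Nutlin-3, 60.5% with 5FU and 47.2% in the controls. Nutlin-3 replicate 1, 5FU replicate 1 and control replicate 2 were thus the low arrays of their groups, and the median residual SD was 0.298 for the 33 genes and 0.161 for all genes. What separates the replicates was not tested.

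After 12 h of Nutlin-3, homologous recombination and Fanconi genes were lower than in the controls, and after 5FU none of them passed the test. Nutlin-3 lowered 12 of the 33 genes (36.4%, against 0.858% of all genes called lower) and raised 0. The 12 were BRCA1, BRCA2, XRCC2, RAD51AP1, RAD54L, RAD54B, PSMC3IP, FANCA, FANCG, BRIP1, BLM and EME1, with falls of 1.92-fold to 3.82-fold and adjusted p-values of 0.00788 to 0.0471. The median difference over the 33 genes was -1.13, beside 0.00 over all genes tested. In total, 30 of the 33 were below the control mean, 18 by at least 2-fold (54.5%, against 1.40% of all genes), and 25 had an unadjusted p under 0.05 (75.8%, against 10.2% of all genes).

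Both Nutlin-3 arrays lay below both control arrays for 25 of the 33 genes (75.8%, against 18.0% of all genes). The groups overlapped for PALB2, MRE11, RAD50, NBN, RAD52, FANCF, FANCL and MUS81. For a single gene, permuting 2 arrays against 2 gives an exact two-sided p of at least 0.333, so the calls rest on limma's sharing of variance between genes. The number of calls depended on single arrays: it was 0 without control replicate 1 (23 genes had an unadjusted p under 0.05, lowest adjusted p 0.0553), 1 (PSMC3IP) without Nutlin-3 replicate 1, 7 without control replicate 2 and 9 without Nutlin-3 replicate 2 or without either 5FU array. The calls by role given below are parts of the 12 and depend on the same arrays. The median difference was less dependent on them, at -0.93 without control replicate 1, -0.85 without Nutlin-3 replicate 1, -1.29 without control replicate 2 and -1.39 without Nutlin-3 replicate 2.

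Against 5FU the Nutlin-3 arrays were lower as well. Of the 33 genes, 10 were lower after Nutlin-3 than after 5FU (30.3%, against 0.572% of all genes called lower) and 0 were higher. They were BRCA2, XRCC2, RAD54L, PSMC3IP, FANCA, FANCG, USP1, BRIP1, BLM and EME1, by 2.07-fold to 4.12-fold (limma adjusted p 0.00502 to 0.0442). The median difference was -1.02, beside -0.01 over all genes, 18 genes were lower by at least 2-fold (54.5%, against 1.43% of all genes) and 26 had an unadjusted p under 0.05 (78.8%, against 13.3%). Both Nutlin-3 arrays were below both 5FU arrays for 28 genes (84.8%, against 25.2% of all genes) and above both for MUS81. The count of calls again depended on single arrays, among the 33 genes and over all genes alike. In both it fell most without Nutlin-3 replicate 1 or without either 5FU array. The median difference was -0.79 without Nutlin-3 replicate 1, -1.24 without Nutlin-3 replicate 2, -1.20 without 5FU replicate 1 and -0.85 without 5FU replicate 2. The comparisons share the Nutlin-3 arrays, so they are not independent of each other, and 13 genes were called in at least 1 of them.

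5FU against control gave 0 calls among the 33 genes by limma, beside 0.448% of all genes called in either direction. An unadjusted p under 0.05 was reached by 2 of them (6.06%, against 10.7% of all genes), the motor protein RAD54L and the strand-exchange factor PSMC3IP, both higher. Of the 33, 13 lay below and 20 above the control mean, with a median difference of 0.06, beside 0.00 over all genes. Differences ran from -0.49 in BRCA1 to 0.74 in RAD54L, and 0 genes reached a 2-fold change, beside 0.897% of all genes. The groups did not overlap for 11 of the 33 (33.3%, against 38.0% of all genes): FANCA, FANCI, BRCA1, EME1 and MUS81 were lower in both 5FU arrays, and XRCC3, RAD54L, PSMC3IP, FANCE, FANCG and USP1 were higher in both. The 95% intervals of the 33 differences together ran from -1.04 to 1.23, so a 2-fold change stays within the interval of some genes. The median difference took either sign with 1 array left out: 0.21 without control replicate 1, -0.05 without control replicate 2, 0.18 without 5FU replicate 1 and -0.10 without 5FU replicate 2.

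**Figure D1:**
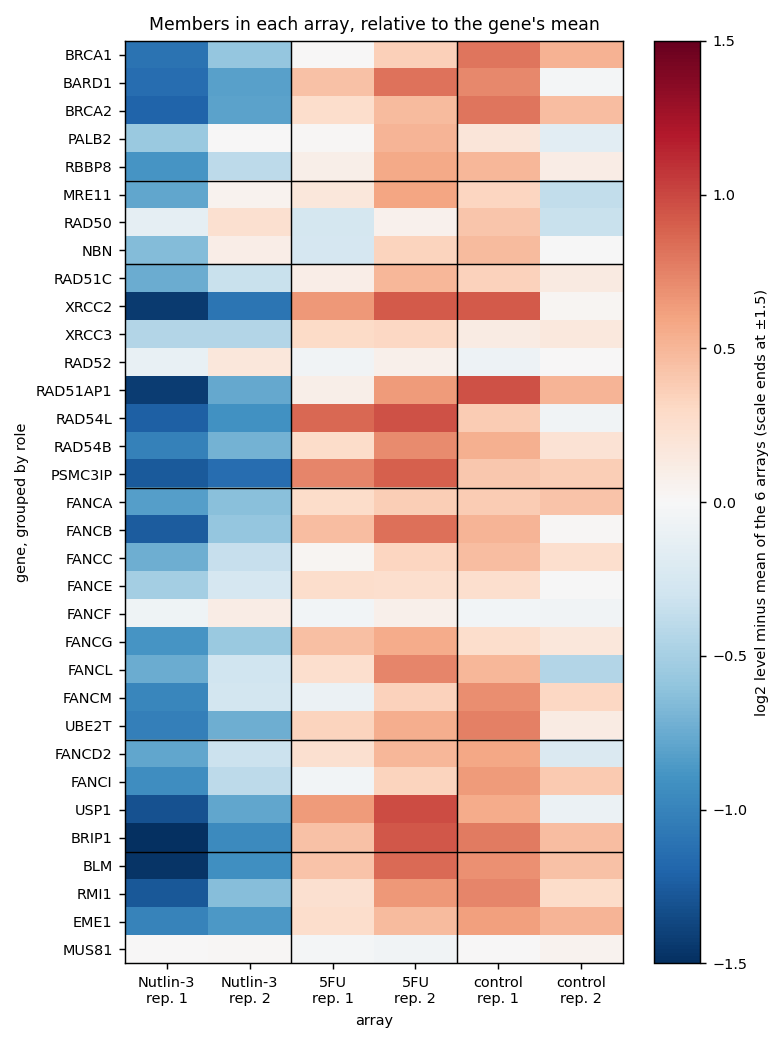
Colours show the log2 value of each of the 33 genes in each array minus the gene's mean over the 6 arrays. Genes are grouped by role, with Nutlin-3 arrays at the left, then 5FU, then control. Nutlin-3 columns are low for most rows and close to the control columns for RAD50, RAD52, FANCF and MUS81. The 5FU columns are above the control columns in some rows and below them in others.

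To set genes that fell beside genes with little difference, the promoters of the members with the 4 largest mean falls after Nutlin-3 are printed with those of RAD50 and MUS81, the pair with the smallest differences. Each run covers 250 bases before to 50 bases after the RefSeq start site (GRCh38.p14), 5′ to 3′ on the strand of the gene. Capitals mark letters found by a script on either strand: the E2F words TTCCCGC or TTCGCGC or TTGCCGC or TTGGCGC, the cell-cycle homology (CHR) words TTTGAA or TTCGAA, and the word CCAAT. An E2F word and a CCAAT word can share letters. BRIP1 is at chr17:61863479-61863778 on the minus strand, RAD51AP1 at chr12:4538640-4538939 on the plus strand and BLM at chr15:90717096-90717395 on the plus strand. XRCC2 is at chr7:152676092-152676391 on the minus strand, RAD50 at chr5:132556727-132557026 on the plus strand and MUS81 at chr11:65860183-65860482 on the plus strand.
BRIP1: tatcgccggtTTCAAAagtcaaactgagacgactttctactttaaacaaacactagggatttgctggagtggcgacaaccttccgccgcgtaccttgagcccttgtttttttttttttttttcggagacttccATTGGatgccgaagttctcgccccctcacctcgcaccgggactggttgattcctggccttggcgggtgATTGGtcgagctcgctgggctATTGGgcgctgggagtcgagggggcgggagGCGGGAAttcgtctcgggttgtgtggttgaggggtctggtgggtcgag
RAD51AP1: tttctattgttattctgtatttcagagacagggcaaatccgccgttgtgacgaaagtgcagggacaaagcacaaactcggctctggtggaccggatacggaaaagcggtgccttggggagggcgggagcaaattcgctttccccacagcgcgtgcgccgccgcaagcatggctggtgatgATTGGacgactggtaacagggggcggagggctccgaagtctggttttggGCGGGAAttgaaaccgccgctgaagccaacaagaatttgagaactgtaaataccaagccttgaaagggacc
BLM: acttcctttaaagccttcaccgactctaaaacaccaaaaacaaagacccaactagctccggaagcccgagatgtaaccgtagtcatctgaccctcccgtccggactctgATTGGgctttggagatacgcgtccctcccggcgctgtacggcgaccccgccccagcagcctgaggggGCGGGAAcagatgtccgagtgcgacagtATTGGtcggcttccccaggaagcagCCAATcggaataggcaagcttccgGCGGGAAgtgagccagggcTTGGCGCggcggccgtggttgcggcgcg
XRCC2: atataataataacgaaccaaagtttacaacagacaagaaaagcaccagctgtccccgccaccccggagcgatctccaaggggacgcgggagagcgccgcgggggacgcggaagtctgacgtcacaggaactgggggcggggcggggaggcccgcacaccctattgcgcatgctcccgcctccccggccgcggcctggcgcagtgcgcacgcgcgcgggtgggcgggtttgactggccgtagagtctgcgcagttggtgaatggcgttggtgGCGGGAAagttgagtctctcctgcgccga
RAD50: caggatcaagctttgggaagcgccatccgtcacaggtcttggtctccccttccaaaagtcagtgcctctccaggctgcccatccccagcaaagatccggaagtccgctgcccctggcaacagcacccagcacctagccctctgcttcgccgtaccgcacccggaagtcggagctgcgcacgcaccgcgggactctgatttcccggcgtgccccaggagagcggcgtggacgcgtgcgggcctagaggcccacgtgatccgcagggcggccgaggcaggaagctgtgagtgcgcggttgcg
MUS81: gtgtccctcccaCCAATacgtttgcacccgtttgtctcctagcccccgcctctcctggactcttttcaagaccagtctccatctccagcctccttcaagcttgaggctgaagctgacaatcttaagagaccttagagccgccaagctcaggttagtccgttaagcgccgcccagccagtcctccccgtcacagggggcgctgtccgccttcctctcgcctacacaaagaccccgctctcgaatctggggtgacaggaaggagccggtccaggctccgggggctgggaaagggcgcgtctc

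The BRIP1 window held 1 E2F word, 1 CHR word and 3 CCAAT words, and the BLM window 3 E2F and 3 CCAAT words. RAD51AP1 had 1 E2F and 1 CCAAT word, and XRCC2 had 1 E2F word. MUS81 had 1 CCAAT word and no E2F word, and RAD50 held none of these letters. RefSeq promoters were at hand for 30 of the 33 genes, and an E2F word was in 17 of them (56.7%), beside 13.1% of 27305 promoters and 18.0% of the promoters of tested genes. Among genes called lower than control it was in 8 of 11 (72.7%), and among those not called in 9 of 19 (47.4%). The printed windows do not show this overlap: the called BRCA1, BRCA2 and PSMC3IP had no E2F word, whereas RAD52 and FANCF, with small differences, had 1 each. CCAAT was in 15 of 30 (50%, against 35.7% of all promoters and 36.1% of those of tested genes). A CHR word was in 3 of 30 (10.0%, against 16.6% of all promoters and 12.3% of those of tested genes). A match describes these letters in this window and is not evidence of binding.

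BRCA1, its partner BARD1, the bridging protein PALB2, the recombinase loader BRCA2 and the resection factor RBBP8 formed the group that prepares DNA ends and loads the recombinase. After Nutlin-3, 2 of these 5 fell, with a group median of -1.33. BRCA1 had 5.98 and 6.52 in the Nutlin-3 arrays, 7.09 and 7.45 in the 5FU arrays, and 7.90 and 7.62 in the control arrays. The groups did not overlap, with Nutlin-3 lowest and 5FU between, and BRCA1 fell 2.85-fold against control (log2 difference -1.51, SE 0.22, limma adjusted p = 0.0309). Its difference from 5FU was -1.02 (limma adjusted p = 0.12) and that of 5FU from control -0.49 (limma adjusted p = 0.517). BRCA2 had 4.86 and 5.25 in the Nutlin-3 arrays, 6.32 and 6.53 in the 5FU arrays, and 6.86 and 6.51 in the control arrays. Its Nutlin-3 arrays stood apart below the other 4, and it fell 3.10-fold against control (log2 difference -1.63, SE 0.19, limma adjusted p = 0.0164) and 2.58-fold against 5FU (limma adjusted p = 0.0435).

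BARD1 and RBBP8 had both Nutlin-3 arrays below all other arrays but did not pass the test. BARD1 had 6.02 and 6.35 in the Nutlin-3 arrays, 7.61 and 7.98 in the 5FU arrays, and 7.89 and 7.14 in the control arrays (difference from control -1.33, limma adjusted p = 0.0865). RBBP8 differed from control by -0.95 (limma adjusted p = 0.177). PALB2 had 7.03 and 7.60 in the Nutlin-3 arrays, 7.60 and 8.09 in the 5FU arrays, and 7.77 and 7.43 in the control arrays. Its groups overlapped, and its difference of -0.29 had a 95% interval of -0.89 to 0.31 (limma adjusted p = 0.831).

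The MRN complex, which senses and trims broken ends, gave 0 calls among MRE11, RAD50 and NBN, at a median of -0.34. MRE11, its nuclease, had 5.64 and 6.47 in the Nutlin-3 arrays, 6.59 and 7.00 in the 5FU arrays, and 6.73 and 6.05 in the control arrays. RAD50, its ATPase, had 8.09 and 8.46 in the Nutlin-3 arrays, 7.95 and 8.29 in the 5FU arrays, and 8.63 and 7.89 in the control arrays. Nutlin-3 and control arrays overlapped for both genes and for NBN, the subunit that recruits the ATM kinase. The differences from control were -0.34 for MRE11 (95% interval -1.12 to 0.45), 0.01 for RAD50 (-0.62 to 0.65) and -0.51 for NBN (-1.24 to 0.22), and each interval includes changes in either direction.

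Paralogs and helpers of the recombinase included the most calls, 5 of 8, with a median of -1.23. XRCC2, a paralog that supports filament assembly, had 5.94 and 6.28 in the Nutlin-3 arrays, 8.02 and 8.28 in the 5FU arrays, and 8.29 and 7.40 in the control arrays. Nutlin-3 was far below the rest, 3.34-fold against control (log2 difference -1.74, SE 0.29, limma adjusted p = 0.0463) and 4.12-fold against 5FU (limma adjusted p = 0.0435). RAD51AP1, which stimulates strand pairing, had 4.94 and 5.61 in the Nutlin-3 arrays, 6.46 and 7.01 in the 5FU arrays, and 7.32 and 6.87 in the control arrays. It fell 3.55-fold against control (log2 difference -1.83, SE 0.29, limma adjusted p = 0.0375), and its difference from 5FU was -1.46 (limma adjusted p = 0.096). Nutlin-3 replicate 1 of RAD51AP1, like that of BRCA2 and FANCB, was close to the filter value of 4.73.

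The motor proteins RAD54L and RAD54B, which help the filament invade its template, both fell. RAD54L had 6.35 and 6.66 in the Nutlin-3 arrays, 8.43 and 8.53 in the 5FU arrays, and 7.95 and 7.52 in the control arrays. The 3 groups did not overlap, with 5FU highest, and RAD54L was lower after Nutlin-3 by 2.35-fold against control (log2 difference -1.23, SE 0.19, limma adjusted p = 0.0346) and by 3.93-fold against 5FU (limma adjusted p = 0.0142). RAD54L differed between 5FU and control by 0.74 (95% interval 0.29 to 1.19, limma adjusted p = 0.216). RAD54B had 5.92 and 6.24 in the Nutlin-3 arrays, 7.21 and 7.65 in the 5FU arrays, and 7.47 and 7.15 in the control arrays. It fell 2.35-fold against control (log2 difference -1.23, SE 0.21, limma adjusted p = 0.0471), and against 5FU it stood at the threshold (difference -1.35, limma adjusted p = 0.0501).

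PSMC3IP, which stimulates strand exchange, had the lowest adjusted p of the 33 genes in both comparisons. It had 6.31 and 6.43 in the Nutlin-3 arrays, 8.30 and 8.46 in the 5FU arrays, and 7.97 and 7.94 in the control arrays. The groups were far apart relative to their spread, and PSMC3IP was lower after Nutlin-3 by 3.01-fold against control (log2 difference -1.59, SE 0.13, limma adjusted p = 0.00788) and by 4.04-fold against 5FU (limma adjusted p = 0.00502). The difference between 5FU and control was 0.43 (95% interval 0.11 to 0.74, limma adjusted p = 0.32). RAD51C and XRCC3, also paralogs, had both Nutlin-3 arrays below the others with differences from control of -0.78 (limma adjusted p = 0.185) and -0.57 (limma adjusted p = 0.105). RAD52, which anneals single strands, had 7.36 and 7.63 in the Nutlin-3 arrays, 7.42 and 7.54 in the 5FU arrays, and 7.39 and 7.47 in the control arrays. Its groups overlapped fully, and the difference from control was 0.06 (95% interval -0.29 to 0.42).

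**Figure D2:**
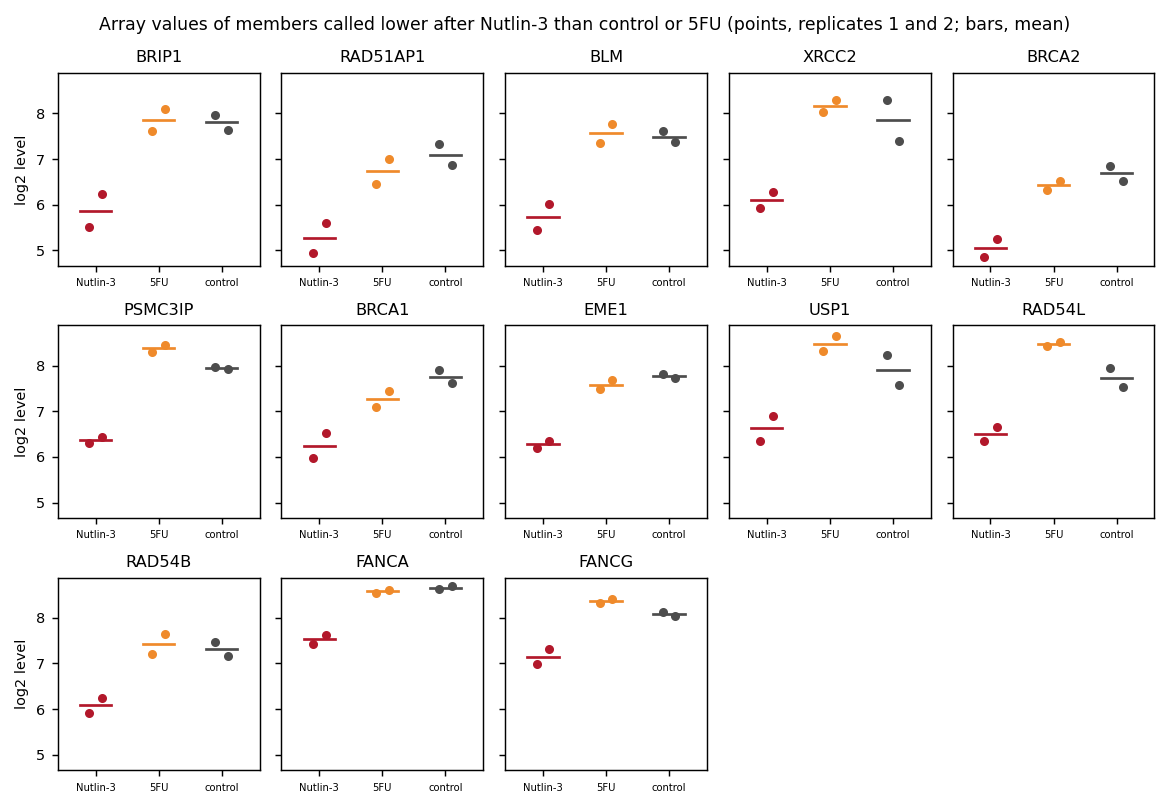
Each panel shows 1 of the 13 genes called lower after Nutlin-3 than in the control or 5FU arrays. Points are log2 values of single arrays and bars their group means (2 arrays each), with Nutlin-3 left, then 5FU, then control. In each of the 13 panels both Nutlin-3 points lie below all 4 other points; USP1 was called against 5FU only.

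Of the Fanconi core complex and its E2 enzyme, 2 of 9 genes fell, FANCA and FANCG, and the median was -0.94. FANCA had 7.43 and 7.63 in the Nutlin-3 arrays, 8.54 and 8.62 in the 5FU arrays, and 8.63 and 8.69 in the control arrays. It fell 2.19-fold against control (log2 difference -1.13, SE 0.14, limma adjusted p = 0.0167) and 2.07-fold against 5FU (limma adjusted p = 0.0332), with both Nutlin-3 arrays well below the rest. FANCG had 6.98 and 7.31 in the Nutlin-3 arrays, 8.32 and 8.42 in the 5FU arrays, and 8.14 and 8.03 in the control arrays. FANCG, which binds FANCA within the complex, fell 1.92-fold against control (log2 difference -0.94, SE 0.16, limma adjusted p = 0.0459) and 2.34-fold against 5FU (limma adjusted p = 0.0315).

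UBE2T, the E2 enzyme that carries ubiquitin to FANCD2, just missed the threshold against control. It had 7.09 and 7.39 in the Nutlin-3 arrays, 8.45 and 8.67 in the 5FU arrays, and 8.87 and 8.24 in the control arrays (difference from control -1.32, limma adjusted p = 0.0522). Both Nutlin-3 arrays were also below the others for FANCB (difference from control -1.18), FANCM, the translocase that anchors the complex (-1.13), FANCC (-0.90) and FANCE (-0.51), with limma adjusted p-values of 0.0973 to 0.293. For FANCL, the ubiquitin ligase itself, the arrays overlapped those of the controls, and the difference was -0.56 (95% interval -1.34 to 0.22). FANCF had 6.90 and 7.08 in the Nutlin-3 arrays, 6.92 and 7.03 in the 5FU arrays, and 6.92 and 6.91 in the control arrays. FANCF, an adaptor of the complex, thus stood at nearly the same level in all groups, with a difference from control of 0.07 (95% interval -0.25 to 0.39).

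Among the substrates of that complex, their deubiquitinase and BRIP1, the call against control was BRIP1 (1 of 4, median -1.23). BRIP1, a helicase that binds BRCA1 and is also a Fanconi gene, had 5.51 and 6.23 in the Nutlin-3 arrays, 7.62 and 8.10 in the 5FU arrays, and 7.96 and 7.65 in the control arrays. It had the largest mean fall of the 33, 3.82-fold against control (log2 difference -1.93, SE 0.28, limma adjusted p = 0.0274), and was 3.99-fold lower than after 5FU (limma adjusted p = 0.0403). USP1 had 6.36 and 6.89 in the Nutlin-3 arrays, 8.31 and 8.65 in the 5FU arrays, and 8.23 and 7.58 in the control arrays. It was lower than after 5FU by 3.62-fold (log2 difference -1.86, SE 0.27, limma adjusted p = 0.0442), while against control the difference was -1.28 (limma adjusted p = 0.101). FANCD2 and FANCI, the pair that receives ubiquitin, had both Nutlin-3 arrays below the others, with differences from control of -0.73 (limma adjusted p = 0.431) and -1.18 (limma adjusted p = 0.0721).

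The last group takes joined molecules apart, by dissolution with the helicase BLM and its partner RMI1 or by cutting with EME1 and MUS81. BLM had 5.45 and 6.01 in the Nutlin-3 arrays, 7.35 and 7.77 in the 5FU arrays, and 7.61 and 7.37 in the control arrays. It fell 3.39-fold against control (log2 difference -1.76, SE 0.23, limma adjusted p = 0.0225) and was 3.56-fold lower than after 5FU (limma adjusted p = 0.0315), with no overlap. RMI1 also had both Nutlin-3 arrays below the rest (difference from control -1.45, limma adjusted p = 0.0629). EME1 and MUS81 are the subunits of a single nuclease, and EME1 alone passed the test. EME1 had 6.21 and 6.35 in the Nutlin-3 arrays, 7.48 and 7.69 in the 5FU arrays, and 7.82 and 7.72 in the control arrays, and fell 2.82-fold against control (log2 difference -1.49, SE 0.14, limma adjusted p = 0.0099) and 2.47-fold against 5FU (limma adjusted p = 0.0206). MUS81, the catalytic subunit, had 7.82 and 7.83 in the Nutlin-3 arrays, 7.79 and 7.76 in the 5FU arrays, and 7.83 and 7.87 in the control arrays. Its difference from control was -0.02 (95% interval -0.32 to 0.27), an interval that lies wholly above that of EME1 (-1.83 to -1.16).

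**Figure D3:**
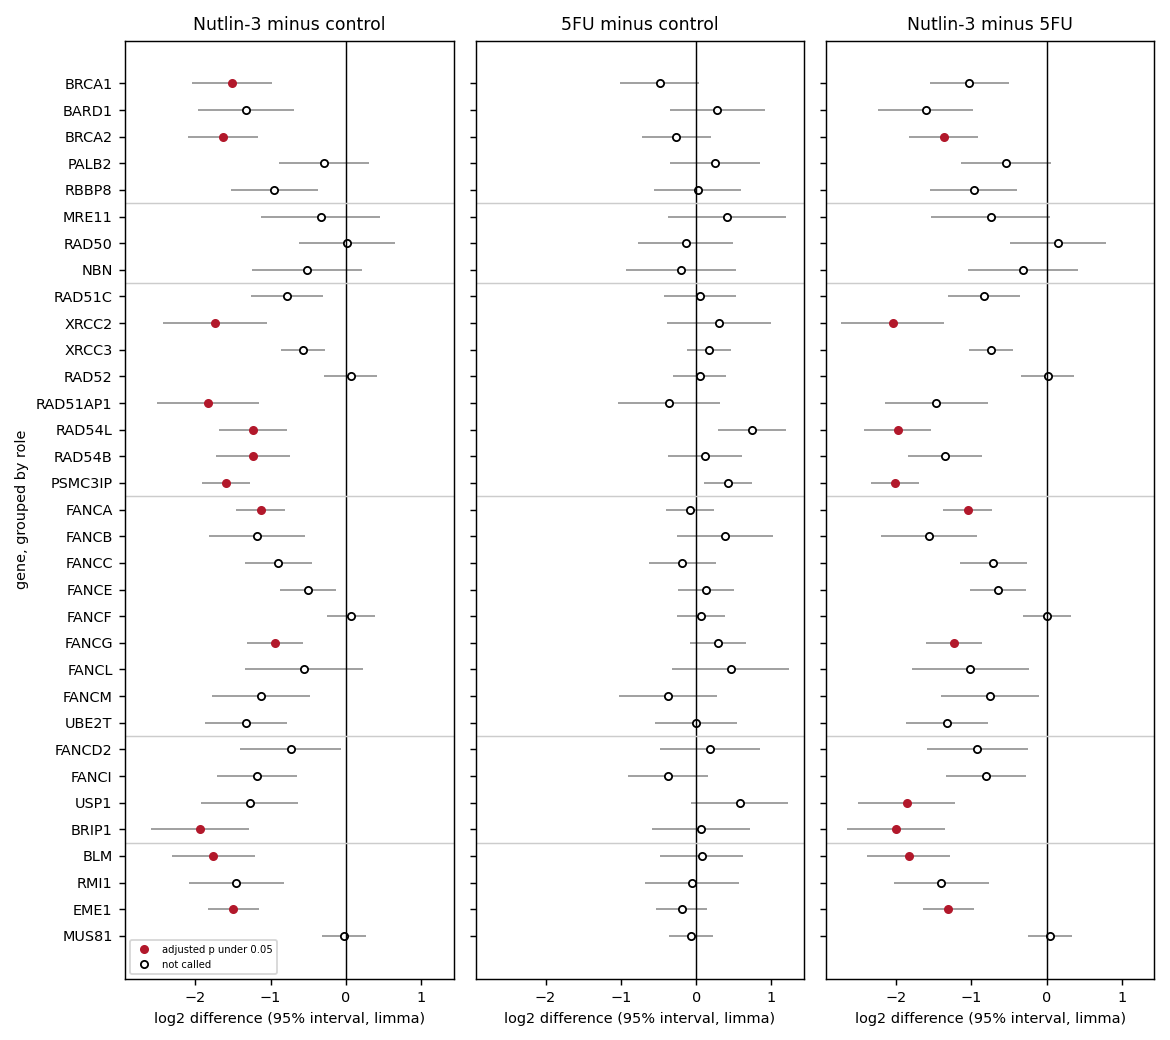
Points are the log2 differences of the 33 genes with 95% intervals from limma, from left to right for Nutlin-3 minus control, 5FU minus control and Nutlin-3 minus 5FU (2 arrays per group), and filled points mark calls. In both comparisons of Nutlin-3 most points lie left of 0, and against control they run from -1.93 for BRIP1 to 0.07 for FANCF; for 5FU they run from -0.49 to 0.74 and none is filled.

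Exon arrays carry many probe sets per gene, which gave a view within each gene. Of the 759 probe sets used, 681 were lower after Nutlin-3 than in the controls (89.7%, against 47.4% of all 705699 probe sets tested), with a median difference of -0.95. Of the 759, 69 had a Nutlin-3 mean below the filter value, so the filter itself favoured a fall, and no count was made without them. An unadjusted p under 0.05 was reached by 450 of the 759 (59.3%, against 6.14% of all), of which 448 were lower, but 0 single probe sets passed the adjustment, among these genes or elsewhere (lowest limma adjusted p 0.062). Against 5FU, 657 of the 759 were lower after Nutlin-3 (86.6%, against 47.0% of all) and 440 had an unadjusted p under 0.05 (58.0%, against 7.39% of all). For 5FU against control, 406 were lower (53.5%, against 51.1% of all) and 49 had an unadjusted p under 0.05 (6.46%, against 6.27%). Probe sets of 1 gene share its RNA and are not replicates.

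In 12 genes every probe set used was lower after Nutlin-3 than in the controls: BARD1, RAD54B, XRCC2, BRIP1, FANCB, FANCC, FANCG, FANCI, RMI1, RBBP8, UBE2T and EME1. The matching share of all genes was not computed, and a gene with few probe sets reaches this more easily, so the list is a description only. The 26 probe sets of BRIP1 ran from -2.90 to -1.02, and the 8 of UBE2T from -1.51 to -1.03. At both ends of the BRIP1 range the Nutlin-3 mean was below the filter value. In BLM, 30 of 31 were lower (-2.94 to 0.16), in RAD51AP1 11 of 12 (-2.60 to 0.04), and in FANCA 60 of 61 (-3.99 to 0.22). The genes with small differences were mixed: 19 of 34 probe sets were lower in MUS81, 15 of 32 in RAD50, 8 of 23 in RAD52 and 2 of 7 in FANCF. In RAD54L, 20 of 21 probe sets were higher after 5FU than in the controls, and 12 had an unadjusted p under 0.05.

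Single probe sets show how wide the spread within a gene was. The filter used the mean over all 6 arrays, so some probe sets passed it only through the 5FU and control arrays: of the 759, 69 had a Nutlin-3 mean below 4.73, against 3 with a 5FU mean and 3 with a control mean below it. Such probe sets had to be lower after Nutlin-3, and the low ends of the BRIP1, BLM and XRCC2 ranges are of this kind. So is the high end of the BRIP1 range, a probe set with 4.50 and 4.46 in the Nutlin-3 arrays. The BRIP1 probe set with the lowest difference had 2.70 and 3.12 in the Nutlin-3 arrays, 5.56 and 5.58 in the 5FU arrays, and 5.94 and 5.68 in the control arrays. The BLM probe set with the lowest difference had 3.85 and 5.11 in the Nutlin-3 arrays, 7.62 and 7.94 in the 5FU arrays, and 7.54 and 7.30 in the control arrays. Both showed no overlap, but the Nutlin-3 replicates of BLM lay further apart than in its gene value. The BLM probe set with the highest difference had 5.49 and 5.64 in the Nutlin-3 arrays, 5.45 and 5.38 in the 5FU arrays, and 5.63 and 5.20 in the control arrays, with overlapping groups. In XRCC2 the lowest had 2.40 and 3.17 in the Nutlin-3 arrays, 6.44 and 7.25 in the 5FU arrays, and 6.50 and 4.28 in the control arrays, so control replicate 2 was also low. The lowest RAD51AP1 probe set had 4.35 and 7.23 in the Nutlin-3 arrays, 7.48 and 8.51 in the 5FU arrays, and 8.92 and 7.87 in the control arrays, with a gap between the Nutlin-3 replicates wider than that between Nutlin-3 replicate 2 and the lower control.

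**Figure D4:**
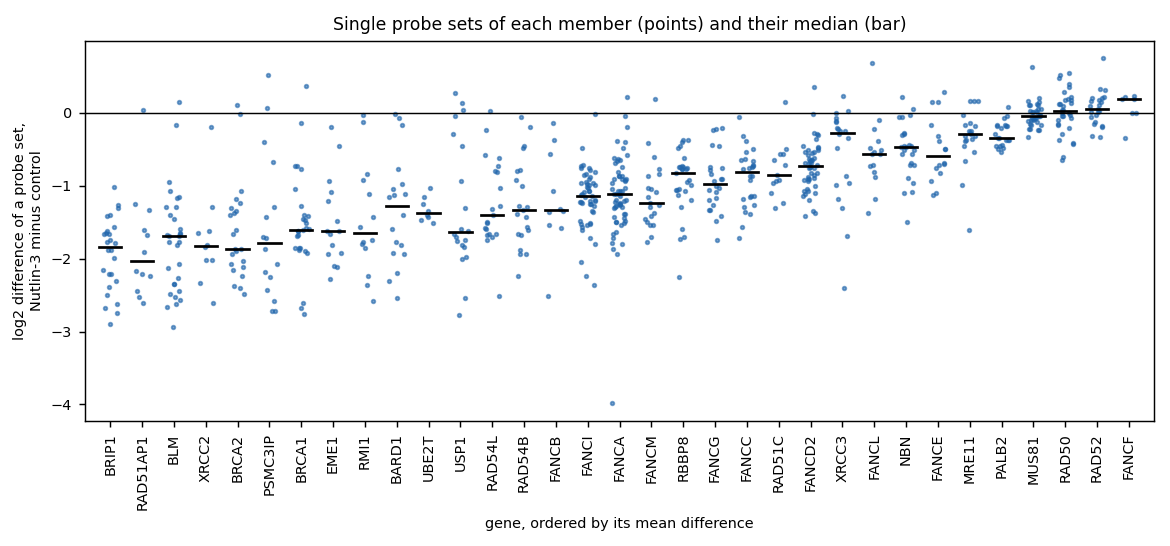
Each point is the log2 difference, Nutlin-3 minus control, of 1 probe set above the filter, grouped by gene, with the median of the gene marked. Points of BRIP1 run from -2.90 to -1.02 and all lie below 0, whereas those of MUS81, RAD50, RAD52 and FANCF lie on both sides of 0.

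RefSeq lists genes that overlap called members in position, and those tested were not called. Differences from control were 0.09 for NBR2 beside BRCA1, 0.38 for LRRC41 beside RAD54L, 0.20 for ZNF276 beside FANCA, -0.02 for MLX beside PSMC3IP and -0.26 for LRRC59 beside EME1 (limma adjusted p 0.389 to 0.985). BRCA1, RAD51AP1, RAD52, FANCD2, RBBP8 and MRE11 have pseudogene copies listed in RefSeq, so some of their signal may be shared with those copies and their values are less certain.

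Other genes of the same repair pathways had a smaller median difference. Both lists were chosen with earlier results of these data known, so this contrast describes the lists and is not independent support. Of 53 further homologous recombination and crosslink repair genes, 49 were tested, and 3 fell after Nutlin-3 (0.858% of all genes did), with a list median of -0.26 against control. Both Nutlin-3 arrays were below both controls for 24 of the 49 (18.0% of all genes). They were below both 5FU arrays for 30 of the 49 (25.2% of all genes), with a list median of -0.46 against 5FU. In that comparison 31 of the 49 had an unadjusted p under 0.05 by limma (13.3% of all genes). EXO1, the long-range resection nuclease, had 6.39 and 6.70 in the Nutlin-3 arrays, 9.13 and 9.49 in the 5FU arrays, and 9.28 and 8.72 in the control arrays. It fell 5.48-fold against control (limma adjusted p = 0.00982) and 6.79-fold against 5FU (limma adjusted p = 0.00944). DNA2, a resection nuclease and helicase, fell 2.38-fold against control (limma adjusted p = 0.0409) and 2.63-fold against 5FU (limma adjusted p = 0.0442). MCM8, a helicase in recombination, fell 2.68-fold against control (limma adjusted p = 0.0178) and 2.46-fold against 5FU (limma adjusted p = 0.0365). After 5FU, 0 of the 49 were called by limma and 6 had an unadjusted p under 0.05 (10.7% of all genes), with a median of 0.12. The 3 falls against control became 0 without control replicate 1 and 1 without Nutlin-3 replicate 1, and the 3 against 5FU became 0 without Nutlin-3 replicate 1 or without 5FU replicate 2, 1 without Nutlin-3 replicate 2 or without 5FU replicate 1, and 5 without either control array.

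By their medians, S phase genes moved with these genes, whereas mitosis genes were lower after 5FU as well. Of 39 tested genes of S phase and replication, 23 fell after Nutlin-3 against control (median -1.25) and 20 against 5FU (median -1.12). Of all genes, 0.858% and 0.572% were called lower in these 2 comparisons. After 5FU against control, 0 of the 39 were called (median -0.02). Of 29 tested mitosis genes, 16 fell after Nutlin-3 (median -1.45) and 2 fell after 5FU (median -0.60, beside 21 of all 17841 genes), both against control. After 5FU, 28 of the 29 lay below the control mean, and 14 had an unadjusted p under 0.05 by limma (10.7% of all genes). Against 5FU, 4 of the 29 were lower after Nutlin-3 (median -0.82). Of 20 p53 targets, 13 rose after Nutlin-3 (median 1.18) and 12 after 5FU (median 1.33), beside 64 and 59 of all 17841 genes. Between the drugs 0 differed by limma, where 5 had an unadjusted p under 0.05 (median 0.03), beside 13.3% of all genes. These counts also depended on single arrays, and the mitosis calls against 5FU became fewer whichever array was left out. Without control replicate 1, calls for Nutlin-3 against control numbered 0 of the S phase genes, 0 of the mitosis genes and 3 of the p53 targets, and without control replicate 2 they numbered 13, 10 and 6. Without Nutlin-3 replicate 1 they numbered 4, 0 and 6, the p53 targets gave 6 without Nutlin-3 replicate 2 and 8 without either 5FU array. S phase calls against 5FU numbered 1 without 5FU replicate 2, 5 without 5FU replicate 1, 2 without Nutlin-3 replicate 1 and 8 without Nutlin-3 replicate 2. For 5FU against control, the p53 targets gave 2 without either control array and 0 without either 5FU array, and the mitosis genes gave 0 without any 1 of those 4 arrays. In RNA from a whole culture, fewer cells in a phase and less of an RNA per cell cannot be told apart, and the part of cell-cycle phase in the falls was not tested.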

How the data were processed

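The authors deposited 1 table of RMA log2 values for 1411399 probe sets on 6 Human Exon 1.0 ST arrays. The submitters' processing notes name RMA without settings or version, and no genome build is stated in the labels or the table. Array medians were 4.73 to 4.78. The labels' protocols name the PicoPure kit for RNA, and the design text the RNeasy kit. Of the probe sets, 357604 had 1 gene symbol, 15322 several and 1038473 none. Symbols were updated through RefSeq's GRCh38.p14 table (16472 current, 2966 updated, 122 kept). A gene value was the mean of its probe sets with a mean above the median of all probe sets (4.73), for genes with at least 2 (median 12). All 3 groups entered 1 limma 3.58.1 fit in R 4.3.3 (lmFit, eBayes, 3 residual degrees of freedom), with Benjamini-Hochberg adjustment over 17841 genes. The script was tested on simulated data. Arrays give no depth, so precision is limited by 2 arrays per group.

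Members and lists were chosen with earlier results of these data known. All called members, the 6 with the smallest difference from control and all called related genes are given. Alternatives covered the probe-set filter and summary, variance model, centring, samples in the fit, replicate block and each array left out. Deviations of same-numbered replicates correlated at -0.56 (Nutlin-3 and control), -0.52 (5FU and control) and 0.63 (Nutlin-3 and 5FU), so the numbers were not taken as pairs.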

Additional observations from a re-analysis of the deposited data

How the results depend on the processing

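All 22 calls among the 33 genes (12 against control, 10 against 5FU) kept their direction in all 14 alternatives named in the processing account, and no called value was reversed. Among values that were not called, the sign turned in at least 1 alternative for 4 of the 33 genes against control (FANCF, MRE11, RAD50 and RAD52), for 4 against 5FU and for 16 between 5FU and control. The counts moved more. With the replicate block, 2 of all 17841 genes were called against control and 0 against 5FU. None of the 33 genes or of the related genes was among them, although 24 and 26 of the 33 had an unadjusted p under 0.05 by limma. Against control, 6 were called with all probe sets, 7 with the median of probe sets and 19 with arrays centred on their medians. Against 5FU, 7 were called with all probe sets, 7 with the median of probe sets, 16 with upper-quartile probe sets and 17 with centring. Related genes called numbered 8 against control with upper-quartile probe sets or centring, and against 5FU 7 with upper-quartile probe sets, 6 with centring, 1 with the median of probe sets and 5 with the fit of those 2 groups alone.

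Leaving out 1 array at a time gave 0 to 9 calls of the 33 against control and 0 to 11 against 5FU, and 0 to 4 and 0 to 5 among related genes. For 5FU against control the count was 0 in all 14 alternatives named in the processing account. A block pairing replicate 1 of the drugs with replicate 2 of the controls, chosen after seeing the data, gave 27 and 19 calls (the 33 genes and related genes) against control, 28 and 31 against 5FU, and 4 and 6 for 5FU against control. With so few arrays, a gene that missed the threshold may still have changed.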
